A study of Homo sapiens with 22 samples.

Results

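Extracellular adenosine metabolism was described here through 9 genes of melanoma cells, taken by symbol from the count tables of 3 single-cell RNA-seq experiments. All 9 were found among 33538 genes in the first experiment and among 36601 genes in the second and in the third. WM989 and WM983B are human melanoma cell lines, and WM989 carries a mutated BRAF. The study asked how untreated melanoma cells move between a drug-susceptible state and a rare state that is primed for resistance to BRAF inhibition.

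The first experiment held 12531 untreated WM989 cells in 8 wells of the microfluidic chip, and the second 1449 untreated WM983B cells in 1 library. By the methods, the WM989 cells of the first and the third experiment had been given lentiviral lineage barcodes, sorted into wells and grown. In the third experiment 40021 WM989 cells in 8 libraries had been kept for 5 days without treatment (Control), with 5 ng/mL TGFB1, with 4 µM of the TGF-β receptor inhibitor LY2109761 (TGFBRi) or with 2 µM of the PI3K inhibitor GDC-0941 (PI3Ki), in the replicates r1 and r2. ATAC-seq of untreated WM989 cells, a measure of open chromatin, covered cells sorted as EGFR_High, NGFR-High or EGFR-NGFR-High and a sort labelled Mix, with 3 libraries each. The methods describe the control cells of that sort as negative for both surface markers. For the first experiment the methods describe a well of mixed cells and a well of cells sorted as EGFR/NGFR-high. The primed share was 6.85% to 79.7% of the cells of a chip well, and the cell labels do not give the sort of a well. By the methods, the mixed and the sorted cells were each split over 2 chip wells, so that each of the 8 chip wells shares its culture with another. Counts over 8 wells are therefore not counts over independent cultures. The sample labels of the third experiment call its replicates Mix and Primed, and these could not be matched to r1 and r2.

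Cells release ATP, and surface enzymes turn it into adenosine step by step. ENTPD1 (CD39) removes phosphates from ATP and ADP, ENPP1 hydrolyses ATP to AMP and pyrophosphate, and NT5E (CD73) converts AMP to adenosine. SLC29A1 (ENT1) is the equilibrative transporter that carries adenosine through the plasma membrane, and inside the cell ADK phosphorylates adenosine to AMP while ADA deaminates it to inosine. ADORA1, ADORA2A and ADORA2B are G-protein-coupled receptors for extracellular adenosine. In melanoma, CD73 is known as a surface protein of dedifferentiated, mesenchymal-like cells and as a source of adenosine that dampens immune cells. The study itself used NT5E as a marker of the primed state.

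ENPP1, NT5E and SLC29A1 carry most of the differences described below, and their promoters are shown for that reason. Each run covers 250 bases before to 50 bases after a RefSeq start on GRCh38.p14, read on the + strand from chromosome 6, and is taken from RefSeq. For NT5E it is chr6:85449833-85450132, for ENPP1 chr6:131807770-131808069 and for SLC29A1 chr6:44223345-44223644. Capitals mark the searched motifs on either strand, which were the GC box GGGCGG, the long SMAD-binding element CAGACA, the AP-1 site TGANTCA, the E-box CACGTG and the CRE stem TGACGT.
NT5E: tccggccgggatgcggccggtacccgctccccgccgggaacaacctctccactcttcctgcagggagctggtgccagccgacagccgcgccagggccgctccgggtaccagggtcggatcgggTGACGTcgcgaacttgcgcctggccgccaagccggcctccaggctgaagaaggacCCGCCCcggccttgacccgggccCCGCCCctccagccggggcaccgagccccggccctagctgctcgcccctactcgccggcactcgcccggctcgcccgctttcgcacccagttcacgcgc
ENPP1: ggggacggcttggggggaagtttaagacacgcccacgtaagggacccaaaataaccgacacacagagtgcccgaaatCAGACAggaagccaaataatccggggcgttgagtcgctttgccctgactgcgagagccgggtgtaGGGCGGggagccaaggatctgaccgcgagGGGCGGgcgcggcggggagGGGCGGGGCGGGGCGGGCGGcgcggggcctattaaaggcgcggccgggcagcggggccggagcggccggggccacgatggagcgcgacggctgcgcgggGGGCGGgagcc
SLC29A1: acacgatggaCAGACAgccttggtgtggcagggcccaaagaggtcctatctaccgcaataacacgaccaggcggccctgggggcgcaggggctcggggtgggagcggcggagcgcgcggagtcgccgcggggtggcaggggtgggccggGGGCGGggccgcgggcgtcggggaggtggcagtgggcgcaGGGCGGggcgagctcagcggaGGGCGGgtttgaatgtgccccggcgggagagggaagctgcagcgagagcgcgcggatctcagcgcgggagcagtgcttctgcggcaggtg
The NT5E promoter held 2 GC boxes and 1 CRE stem, the ENPP1 promoter 7 GC boxes and 1 CAGACA, and the printed SLC29A1 promoter 3 GC boxes and 1 CAGACA. A second RefSeq promoter of SLC29A1, chr6:44219365-44219664, is not printed and held 3 GC boxes, 1 E-box and no CAGACA. Of the 14 RefSeq promoters of the members, 2 held CAGACA. Of 35116 RefSeq promoters of the same length, 45.0% held a GC box, 16.9% CAGACA and 7.98% the CRE stem. The NT5E promoter had 75.0% G and C and the median promoter 58.7%. RefSeq promoters were matched for 8 of the 9 members, and ADORA2A had none. These matches are descriptions of letters in the window and no evidence of a bound factor.

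Depth lay between 35882876 and 177318308 UMIs (unique molecular identifiers) per well in the first experiment and between 70239657 and 122420544 UMIs per library in the third, and WM983B had 102738398 UMIs. Cell states were those of the authors, who named whole clusters primed or drug-susceptible. Of the cells, 2843 were primed in the first experiment, 731 in WM983B and 4077 in the third. In WM989 wells the summed level of EGFR, NGFR, AXL, FN1 and SERPINE2 was 3100.0 to 5800.0 CPM (UMIs of a gene scaled to a total of 1000000) in the primed state, against 154 to 889 CPM in the drug-susceptible state. FN1 gave most of the primed sum, with 3770.0 CPM over all primed cells against 98.7 CPM in drug-susceptible cells. The melanocytic genes SOX10, MITF, PMEL, MLANA and DCT summed to 106 to 515 CPM against 4500.0 to 5330.0 CPM, so that the primed cells of the first experiment largely lacked the markers of the labelled cell type. In the third experiment the same list was at 459 to 2750.0 CPM in primed cells, with SOX10 at 70.8 and 69.6 CPM in Control. In WM983B the melanocytic list was at 688 CPM when primed against 1980.0 CPM otherwise, and the list of EGFR, NGFR, AXL, FN1 and SERPINE2 at 3160.0 against 1420.0 CPM. FN1 and SERPINE2 gave most of it, with 1020.0 and 2000.0 CPM in primed WM983B cells against 602 and 777 CPM. EGFR was at 3.13 against 2.21 CPM, NGFR at 56.1 against 12.3 CPM and AXL at 76.2 against 24.2 CPM. Of the melanocytic genes there, MITF was at 197 against 392 CPM and SOX10 at 192 against 208 CPM. The numbers of cell barcodes found in more than 1 library were 19 of 12512 in the first experiment and 194 of 39827 in the third.

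In untreated WM989 cells 2 of the 3 surface enzymes stood out in the primed state. NT5E and ENPP1, but not ENTPD1, were several times higher in primed than in drug-susceptible cells in every well, ADORA1 was higher from a very low level, and ADA was lower in every well. States had been called by the authors from these same counts, so that these levels are descriptions without a test. Among genes of at least 1 CPM in a state, 3 of 8 members had a ratio of primed to drug-susceptible CPM above 2, as did 13.7% of 13194 genes. ADORA1, which is among the 3, passed the 1 CPM limit through the primed state only, so that its ratio follows in part from that limit. A ratio below 0.5 was found for 1 of 8 members and for 7.91% of the genes, and the median log2 ratio was 0.58 for the members and 0.07 for all genes. These ratios pool wells of different primed share, so that they also set wells against each other. For ADA, the member below 0.5, the ratios within wells ran from 0.341 to 0.85.

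NT5E lies on chromosome 6 from 85450083 to 85495784 on the + strand (hg38, canonical transcript). In drug-susceptible cells its lowest, median and highest well were at 19.9, 25.9 and 30.7 CPM, and in primed cells at 147, 192 and 251 CPM. Every primed value lay above every drug-susceptible value, and the share of all genes for which this holds was not counted. Over all cells NT5E reached 195 CPM when primed against 24.4 CPM otherwise. The ratio was 8.01 with a 95% Poisson interval from 7.85 to 8.17 that covers counting error only, and the wells gave ratios from 6.6 to 8.36. The replicates of this experiment differed, since the primed state held 150.0 CPM in r1 and 243 CPM in r2 and the drug-susceptible state 20.7 and 30.3 CPM. The ratio was 7.25 within r1 and 8.0 within r2.

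The surface enzyme before it, ENPP1, followed the same pattern. This gene lies on chromosome 6 from 131808020 to 131895155 on the + strand. Its wells ranged from 13.8 through a median of 20.7 to 29.3 CPM in drug-susceptible cells and from 93.6 through 220.0 to 300.0 CPM in primed cells. The ratio over all cells was 9.68 (9.48 to 9.88), with 7.17 in r1 and 10.2 in r2. As for NT5E, all wells of r2 lay above all wells of r1 within each state, from 25.2 to 29.3 against 13.8 to 16.2 CPM in drug-susceptible cells. The third surface enzyme, ENTPD1, did not share this pattern, with 3.71 CPM when primed against 4.61 CPM otherwise, a ratio of 0.804 (0.739 to 0.874) and a higher primed level in 3 of 8 wells. ENTPD1 overlaps the antisense gene ENTPD1-AS1, and whether the counting used strand was not given in the sources used here, so that its values are uncertain.

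**Figure D1:**
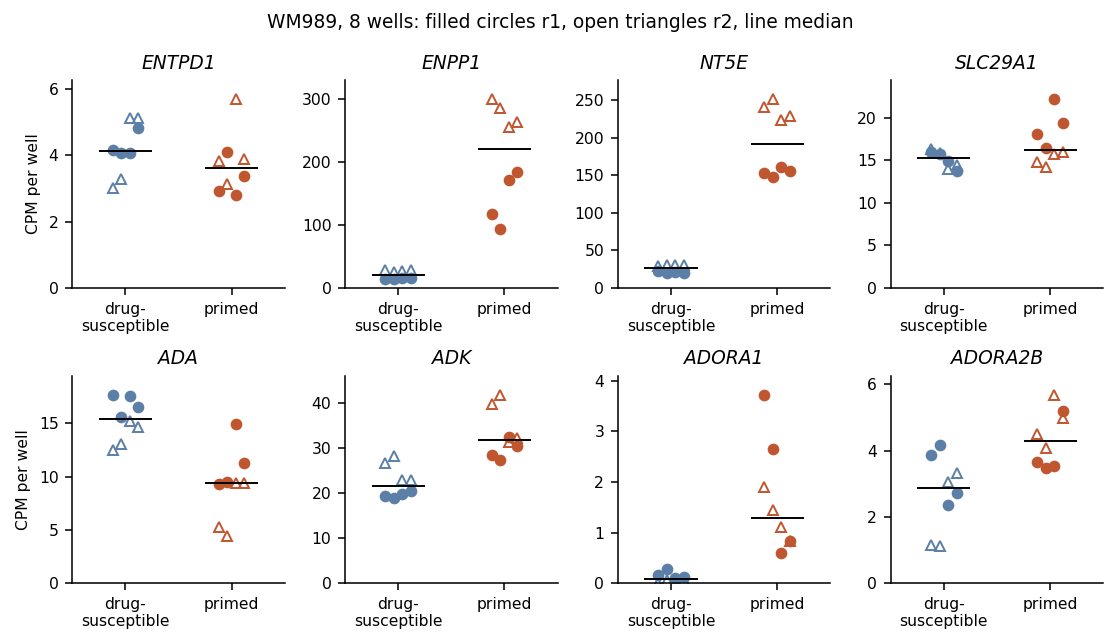
Level in CPM of 8 members in drug-susceptible (blue) and primed (orange) cells of the 8 wells of untreated WM989, with a line at the median of the wells and separate markers for r1 and r2. All primed wells lie above all drug-susceptible wells for NT5E, ENPP1 and ADORA1, and the ranges of the states overlap for the remaining genes, although within each well ADA is lower and ADK higher in primed cells. The states were called from these counts, and the share of all genes whose wells separate in this way was not counted.

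The transporter and the intracellular enzymes differed less. SLC29A1 had 16.1 CPM when primed against 14.4 CPM otherwise, a ratio of 1.12 (1.07 to 1.16), with a higher primed level in 6 of 8 wells and a ratio of 1.21 in r1 and 1.02 in r2. ADK had 33.6 and 21.3 CPM, a ratio of 1.58 (1.53 to 1.63), and was higher in primed cells in 8 of 8 wells. ADA had 7.84 and 16 CPM, a ratio of 0.49 (0.464 to 0.518), and was lower in primed cells in all 8 wells, with 0.595 for r1 and 0.38 for r2. Thus the adenosine-phosphorylating and the adenosine-deaminating enzyme stood on opposite sides of 1 in these cells.

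Of the receptors, ADORA1 had 394 UMIs in primed and 64 UMIs in drug-susceptible cells, or 2.05 and 0.115 CPM, a ratio of 17.9 (13.7 to 23.7). Its wells ranged from 0.591 through 1.29 to 3.73 CPM in primed cells and from 0.0 through 0.0943 to 0.283 CPM in drug-susceptible cells. In well 5 no UMI was counted in drug-susceptible cells, and in the other 7 wells the primed level was higher in each. The ratios within these 7 wells ran from 5.17 to 21.7. ADORA2B, the low-affinity receptor, had 4.06 and 2.88 CPM, a ratio of 1.41 (1.29 to 1.54), and was higher in primed cells in 6 of 8 wells. ADORA2A had 1 UMI in primed and 3 UMIs in drug-susceptible cells, at or under the limit of 3 counts, and ADORA2A-AS1 overlaps it, so that no ratio is given.

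Among single cells, 97.1% of the 2843 primed cells had an NT5E UMI, against 59.6% of the 9688 drug-susceptible ones, and the median depths were 58253 and 52835 UMIs. After each cell was thinned to 10000 UMIs, with no cell left out, the shares were 76.1% (exact Clopper-Pearson interval 74.5 to 77.6) and 19.3% (18.5 to 20.1). For ENPP1 the thinned shares were 56.5% and 17.3%, and for ADORA1 2.11% and 0.0929%. No cell type that should lack these genes was in the data, so that the part of free RNA in the low shares of drug-susceptible cells was not tested. Within the primed cells, ENPP1 was detected in 61.4% of cells with an NT5E UMI and in 40.7% of cells without one, and SLC29A1 in 15.4% and 15.3%. In the drug-susceptible state the ENPP1 shares were 21.2% and 16.3%. In the third experiment, thinned to 5000 UMIs, they were 60.5% and 51.5% in primed cells and 19.6% and 18.9% in drug-susceptible cells, where the exact intervals overlapped. In WM983B, thinned to 30000 UMIs, they were 49.9% and 45.4% in drug-susceptible cells, also with overlapping intervals. In primed WM983B cells the share was lower with an NT5E UMI, at 49.7% (exact interval 45.6 to 53.7) against 58.1% (48.6 to 67.2), but these intervals overlap and the second rests on 117 cells. Detection in both genes also follows what cells share, such as replicate and cell cycle phase.

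Across the 11 clusters of this experiment NT5E was highest in cluster 9 with 226 CPM (222 to 230), then in cluster 2 with 190 CPM (187 to 193) and cluster 8 with 167 CPM (162 to 172). These 3 clusters make up the primed state, and their intervals do not overlap. The same order held within r1, at 172, 147 and 136 CPM, and within r2, at 264, 238 and 215 CPM. The drug-susceptible clusters lay far below, from 14.6 to 25.0 CPM in r1 and from 24.4 to 49.6 CPM in r2. The highest of them was cluster 3 in r1, while in r2 it was cluster 10 with 49.6 CPM (43.8 to 55.9), ahead of cluster 3 with 37.1 CPM (34.4 to 40). ENPP1 was highest in cluster 9 in both replicates, with 169 CPM in r1 and 344 CPM in r2. Clusters 2 and 8 changed places, with 93.4 and 112 CPM in r1 and 276 and 201 CPM in r2. By cell cycle phase, ENPP1 of primed cells was at 175 CPM in G1, 182 CPM in S and 297 CPM in G2M, while NT5E was at 191, 204 and 208 CPM. The phase levels pool r1 and r2, which differed in level, and were not taken within a replicate.

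**Figure D2:**
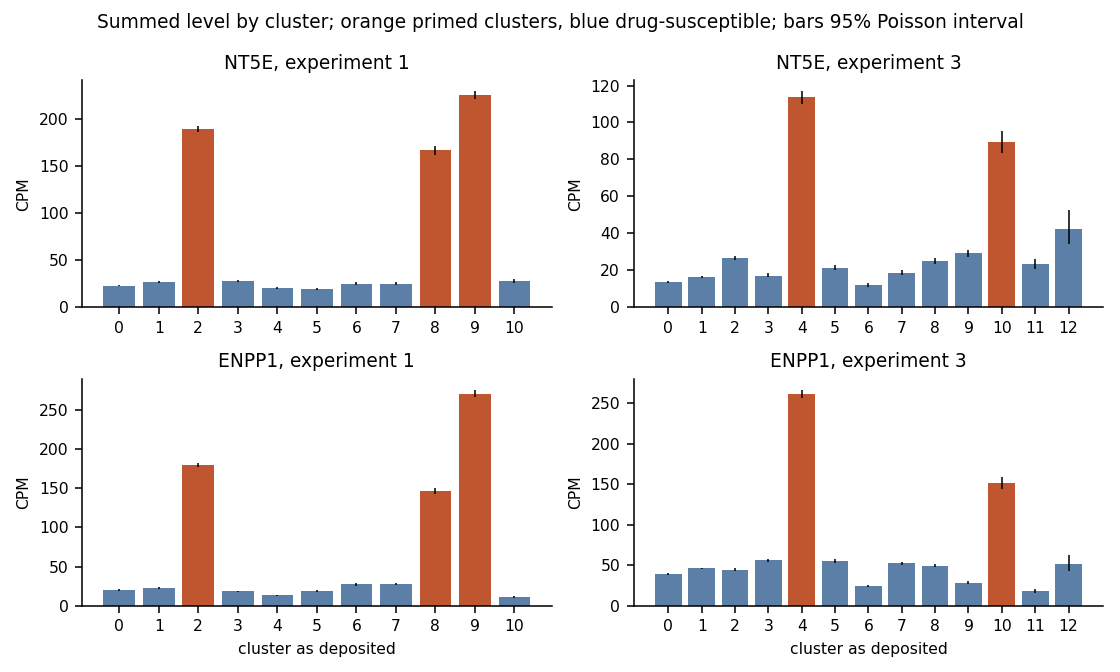
Level in CPM of NT5E and ENPP1 summed over the cells of each cluster in the first and the third experiment, with 95% Poisson intervals. The primed clusters 2, 8 and 9 of the first experiment and 4 and 10 of the third stand above all drug-susceptible clusters, among which cluster 12 of the third experiment is highest for NT5E at 42.5 CPM.

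The genes whose cluster levels were most like NT5E, by Pearson's r of log2(CPM + 1) over the 11 clusters and among 9221 genes, were LINC02081 (r = 0.997), ZYX (0.995), TPM4 (0.995), ERRFI1 (0.995) and MYEOV (0.995). Over the 13 clusters of the third experiment r was 0.957 for ZYX, 0.832 for TPM4, 0.907 for ERRFI1 and 0.953 for MYEOV. The most opposed were NCALD (−0.99), CD320 (−0.988) and TSPAN10 (−0.986), with −0.87, −0.836 and −0.893 in the third experiment. Among the members ENPP1 had r of 0.967 and 0.797, ADORA1 0.963 and 0.817 and ADA −0.836 and −0.446. Clusters share cells of the same wells and few clusters are primed, so that r mostly restates the contrast of the states.

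Endothelial cells also carry CD73, and the list of PECAM1, CDH5, VWF, KDR and TIE1 was higher as a sum in primed cells. Per well it summed to 17.0 to 31.0 CPM when primed, against 0.749 to 1.47 CPM otherwise, and its part in the NT5E level was not tested. PECAM1 gave most of this sum, with 22.8 against 0.183 CPM, while the endothelial cadherin CDH5 was at 0.0052 CPM with 1 UMI in all primed cells. VWF was at 2.47 against 0.312 CPM and KDR at 0.224 against 0.156 CPM, and TIE1 went the other way, at 0.213 against 0.26 CPM. The epithelial list of EPCAM, KRT5, KRT14, KRT8 and CDH1 was at 27.2 to 47.6 CPM and 16.8 to 21.3 CPM, with KRT5 at 0 in both. KRT8 gave most of it, with 40.3 against 19.4 CPM, while CDH1 was lower in primed cells, at 0.0468 against 0.227 CPM. EPCAM had 1 UMI in primed and 9 UMIs in drug-susceptible cells, and KRT14 had 3 UMIs in each state.

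In WM983B cells the contrast was smaller, and NT5E alone among the members had a ratio above 2. NT5E had 85.6 CPM over 731 primed cells against 40.9 CPM over 718 others, a ratio of 2.09 (1.99 to 2.2). The primed clusters 0 and 2 were at 84.2 and 94.2 CPM. Of the others, cluster 1 with 628 cells was at 35.9 CPM and cluster 3 with 90 cells at 72.1 CPM. AXL and MITF were at 53.2 and 220 CPM in cluster 3 and at 19.5 and 420 CPM in cluster 1. The part of cluster 3 in the smaller contrast was not tested. NT5E was the 1 of 7 members that passed 1 CPM with a ratio above 2, against 2.87% of 13769 genes, and 0 members and 1.37% of the genes were below 0.5. The median log2 ratio was 0.11 for the members and 0.06 for all genes. ENPP1 was at 24.0 and 22.3 CPM (ratio interval 0.994 to 1.17), and ADA at 7.19 and 7.18 CPM. ADK was at 56.9 and 49.4 CPM (ratio 1.15, 1.09 to 1.22), and SLC29A1 at 19.1 and 21.2 CPM (ratio 0.901, 0.825 to 0.983). ADORA2B had 8.54 and 8.09 CPM, ADORA2A 13 UMIs in each state, and ADORA1 1 and 2 UMIs, at or under the limit of 3 counts. With 1 library, these values have no replicate check. After thinning to 30000 UMIs, 84.0% of primed and 62.5% of drug-susceptible cells had an NT5E UMI.

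Among 47 other genes of purine and adenosine metabolism, 28 passed 1 CPM in the first experiment, of which 6 had a ratio above 2 and 1 below 0.5, beside the 13.7% and 7.91% of all genes, with a median log2 ratio of 0.0 over the passed genes. The 6 were ENTPD4 (ratio 2.03), ENPP2 (2.64), SLC29A4 (2.05), AMPD2 (2.29), PANX2 (2.01) and AMPD3. ENTPD4 was above 2 in neither replicate, with 1.97 in r1 and 1.94 in r2. SLC29A4 (2.79 and 1.18) and PANX2 (2.35 and 1.62) were above 2 in r1 but not in r2. ENPP2 (2.18 and 3.2) and AMPD2 (2.31 and 2.12) were above 2 in both. AMPD3, an AMP deaminase, was named after its values were seen, with 3.46 CPM when primed against 0.0913 CPM otherwise and a ratio of 37.9 (26.9 in r1, 56.4 in r2). AMPD3 and SLC29A4, at 1.32 and 0.645 CPM, passed 1 CPM only in the primed state, so that a ratio above 1 was fixed by the filter. The 1 below was NT5M, a mitochondrial nucleotidase, with 4.55 and 12 CPM and a ratio of 0.38. AMPD2 and AMPD3 turn AMP into IMP. In WM983B 28 genes of the list passed, and 0 were above 2 or below 0.5.

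The treatment experiment asked what TGFB1, TGFBRi and PI3Ki do to cells of either state, and counts were first summed over all cells of a library. In such sums fewer cells of a state and less RNA per cell cannot be told apart. The 3 comparisons share the 2 Control libraries. Each was tested with edgeR's quasi-likelihood test, with treatment and replicate as terms and Benjamini-Hochberg adjustment over 18389 genes, and by the methods r1 and r2 were 2 samples carried in parallel. With TGFB1, 5 of 9 members rose (NT5E, ENPP1, ENTPD1, SLC29A1 and ADK), as did 16.3% of all genes. With PI3Ki 4 of 9 members fell (NT5E, ENPP1, ADK and ADORA2B), as did 6.83% of all genes. The median log2 change was 0.66 for the members and 0.01 for all genes with TGFB1, and −0.24 and 0.0 with PI3Ki.

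NT5E was at 16.4 and 30.8 CPM in the Control libraries r1 and r2, at 34.1 and 52.0 CPM with TGFB1, at 14.1 and 25.1 CPM with TGFBRi and at 10.5 and 20.8 CPM with PI3Ki. Replicate r2 lay above r1 in each treatment, and within each replicate the order of the treatments was the same. The log2 change was 0.89 ± 0.08 (SE, edgeR adjusted p = 1.41e-08) with TGFB1, a rise of 1.85-fold, and −0.49 ± 0.08 (edgeR adjusted p = 0.000446) with PI3Ki. With TGFBRi it was −0.24 ± 0.08 (edgeR adjusted p = 0.159). Without the term for replicate the adjusted p was 0.112 with TGFB1 and 0.542 with PI3Ki.

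ENPP1 was at 53.5 and 50.2 CPM in Control, 105 and 112 CPM with TGFB1 and 33.6 and 30.6 CPM with PI3Ki, and the groups did not overlap. Its log2 change was 1.05 ± 0.07 (edgeR adjusted p = 2.34e-11) and −0.59 ± 0.07 (edgeR adjusted p = 2.51e-06). The transporter SLC29A1 rose most, from 13.4 and 13.9 CPM to 49.2 and 46.7 CPM with TGFB1, or by 1.80 ± 0.08 on the log2 scale (3.48-fold, edgeR adjusted p = 5.66e-14), and with PI3Ki it was at 11.1 and 11.7 CPM (edgeR adjusted p = 0.245). ADK went from 27.3 and 28.4 CPM to 34.1 and 35.1 CPM with TGFB1, a log2 change of 0.30 ± 0.06 (edgeR adjusted p = 0.000942). With PI3Ki it was at 22.4 and 21.6 CPM, −0.24 ± 0.06 (edgeR adjusted p = 0.0149), but leaving out any 1 Control or PI3Ki library ended this call, with adjusted p from 0.0925 without Control r1 to 0.237 without Control r2, 0.136 without PI3Ki r1 and 0.183 without PI3Ki r2.

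ENTPD1 changed by 0.41 ± 0.11 with TGFB1 (edgeR adjusted p = 0.00509), from 2.51 and 3.79 CPM to 3.52 and 4.90 CPM, so that the groups overlapped between replicates. The adjusted p was 0.104 without Control r1, 0.0578 by DESeq2 and 0.212 without the term for replicate. ADORA2B went from 0.935 and 1.38 CPM to 0.584 and 0.915 CPM with PI3Ki, −0.52 ± 0.17 (edgeR adjusted p = 0.0491). This call was lost when any 1 Control or PI3Ki library was left out (adjusted p 0.234 without Control r1, 0.182 without Control r2, 0.173 without PI3Ki r1, 0.321 without PI3Ki r2), and DESeq2 gave 0.237. ADA had a log2 change of −0.04 ± 0.07 with TGFB1, with a normal 95% interval from −0.18 to 0.11, and 0.03 ± 0.07 with PI3Ki. ADORA1 with 6 to 32 UMIs and ADORA2A with 3 to 17 UMIs per library did not pass the test in any comparison.

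With TGFBRi 0 of 9 members passed the edgeR test and 0 passed DESeq2, while 2.53% of all genes were called by edgeR. At an unadjusted p under 0.05, 4 members were counted, which were NT5E, ENTPD1, ADK and ADORA2A. The share of all genes at that limit was not counted, so that these 4 have no background beside them. The median log2 change was −0.12 for the members and 0.0 for all genes. For SLC29A1 it was −0.07 ± 0.08, with an interval from −0.23 to 0.09.

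The primed share of cells changed with the treatments, so the levels were next taken within the states. Primed cells made up 2.26% and 4.47% of the Control libraries, 29.1% and 31.3% with TGFB1, 2.26% and 4.32% with TGFBRi and 0.647% and 1.21% with PI3Ki. In the 2 Control libraries 9.55% and 11% of all NT5E UMIs came from primed cells, and with TGFB1 68.8% and 65.6%. As a description, the Control levels of both states were mixed at the share of UMIs that primed cells held with TGFB1, 25.2% in r1 and 26.4% in r2. This gave 34.2 and 49.6 CPM for NT5E, beside 34.1 and 52.0 CPM observed. For ENPP1 it gave 87.0 and 89.9 CPM beside 105 and 112 CPM, and for SLC29A1 14.0 and 15.0 CPM beside 49.2 and 46.7 CPM. With TGFB1 the mixed value thus lay close to the observed one for NT5E, below it for ENPP1 and far below it for SLC29A1. With the other agents NT5E was below its mixed value, at 10.5 and 20.8 CPM observed beside 15.4 and 28.9 CPM with PI3Ki (ratios 0.681 and 0.719) and 14.1 and 25.1 CPM beside 16.5 and 31.1 CPM with TGFBRi (0.856 and 0.807).

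**Figure D3:**
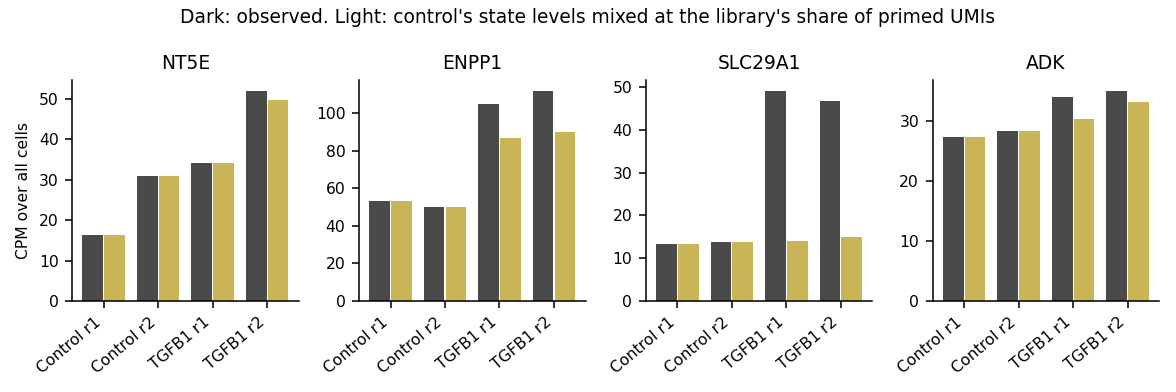
Level in CPM over all cells of the Control and TGFB1 libraries, observed (dark) and as the Control levels of both states mixed at the library's own share of primed UMIs (light). In the TGFB1 libraries the bars are close for NT5E, while observed SLC29A1 is 3.52 and 3.12 times the mixed value.

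Within drug-susceptible cells 4 of 9 members rose with TGFB1 (SLC29A1, ENTPD1, ENPP1 and ADK), against 8.56% of 17914 genes, and 3 of 9 fell with PI3Ki (NT5E, ENPP1 and ADK), against 6.22%. The median log2 change was 0.24 for the members with TGFB1 and −0.23 with PI3Ki, and 0.0 for all genes in both. NT5E was at 15.1 and 28.3 CPM in Control and at 14.2 and 24.2 CPM with TGFB1, a log2 change of −0.17 ± 0.07 (edgeR adjusted p = 0.133). With PI3Ki it was at 10.4 and 20.1 CPM, −0.40 ± 0.07 (edgeR adjusted p = 0.000709), and the adjusted p was 0.0542 without PI3Ki r1 and 0.625 without the term for replicate. With TGFBRi it was at 12.9 and 22.6 CPM, −0.26 ± 0.07 (edgeR adjusted p = 0.0602), which passed without TGFBRi r1 (−0.29, adjusted p = 0.0246).

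SLC29A1 of drug-susceptible cells went from 13.4 and 13.7 CPM to 28.6 and 27.1 CPM with TGFB1, 1.02 ± 0.08 (edgeR adjusted p = 1.55e-09). Many of these cells lay in cluster 3, which held 2182 and 1619 cells with TGFB1 and 56 and 59 cells in Control, and there SLC29A1 was at 33.9 and 36.2 CPM against 20.9 and 20.7 CPM. Of the state markers, AXL was higher in these cells with TGFB1, by 3.03 ± 0.23 (edgeR adjusted p = 7.32e-10). EGFR (0.38), SOX10 (0.14) and MITF (−0.15) did not pass, with adjusted p of 0.109, 0.173 and 0.178. The part of these markers in the SLC29A1 result was not tested. ENTPD1 rose from 2.40 and 3.77 CPM to 3.81 and 5.38 CPM, 0.56 ± 0.11 (edgeR adjusted p = 0.000896), with an adjusted p of 0.157 without the term for replicate. ENPP1 changed from 51.0 and 45.0 CPM to 56.6 and 56.4 CPM, 0.22 ± 0.07 (edgeR adjusted p = 0.0201), and ADK from 27.1 and 27.8 CPM to 32.7 and 32.6 CPM, 0.24 ± 0.07 (edgeR adjusted p = 0.0144). Both of these small rises were lost when any 1 Control or TGFB1 library was left out, with adjusted p of 0.0748, 0.342, 0.0604 and 0.207 for ENPP1 and 0.21, 0.0973, 0.173 and 0.0547 for ADK (without Control r1, Control r2, TGFB1 r1 and TGFB1 r2).

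With PI3Ki ENPP1 of drug-susceptible cells fell to 33.5 and 30.4 CPM, −0.49 ± 0.07 (edgeR adjusted p = 1.96e-05). ADK was at 22.2 and 21.6 CPM, −0.23 ± 0.07 (edgeR adjusted p = 0.0243), a call that was lost without any 1 Control or PI3Ki library (adjusted p 0.116 without Control r1, 0.297 without Control r2, 0.235 without PI3Ki r1 and 0.2 without PI3Ki r2). Of the state markers in these cells, NGFR changed by −1.67 ± 0.25 and EGFR by −0.96 ± 0.17, with edgeR adjusted p of 6.39e-05 and 0.00049. AXL (−1.07), SOX10 (0.11) and MITF (0.11) did not pass, with adjusted p of 0.0618, 0.359 and 0.356. The part of these markers in the falls of NT5E, ENPP1 and ADK was not tested. The drug-susceptible cells with PI3Ki also lay in other clusters, since cluster 6 held 1104 and 1135 of them and 129 and 39 cells in Control. Pooled over all treatments, that cluster was at 12.1 CPM for NT5E and 24.4 CPM for ENPP1. Most of its 2531 cells were PI3Ki cells, so that this level is largely that of PI3Ki itself. The levels were lower with PI3Ki within cluster 0 as well, where ENPP1 was at 34.3 and 31.8 CPM against 45.3 and 41.0 CPM, and NT5E at 9.81 and 14.0 CPM against 13.6 and 19.3 CPM. Within cluster 1 ENPP1 was at 35.2 and 33.9 CPM against 53.4 and 45.4 CPM, and NT5E at 11.9 and 19.9 CPM against 14.3 and 23.5 CPM. Levels within clusters were not tested. With TGFBRi 0 of 9 members passed edgeR and DESeq2, against 2.81% of all genes by edgeR. At an unadjusted p under 0.05 there were 4 members, and the share of all genes at that limit was not counted. The median log2 change of the members was −0.07.

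**Figure D4:**
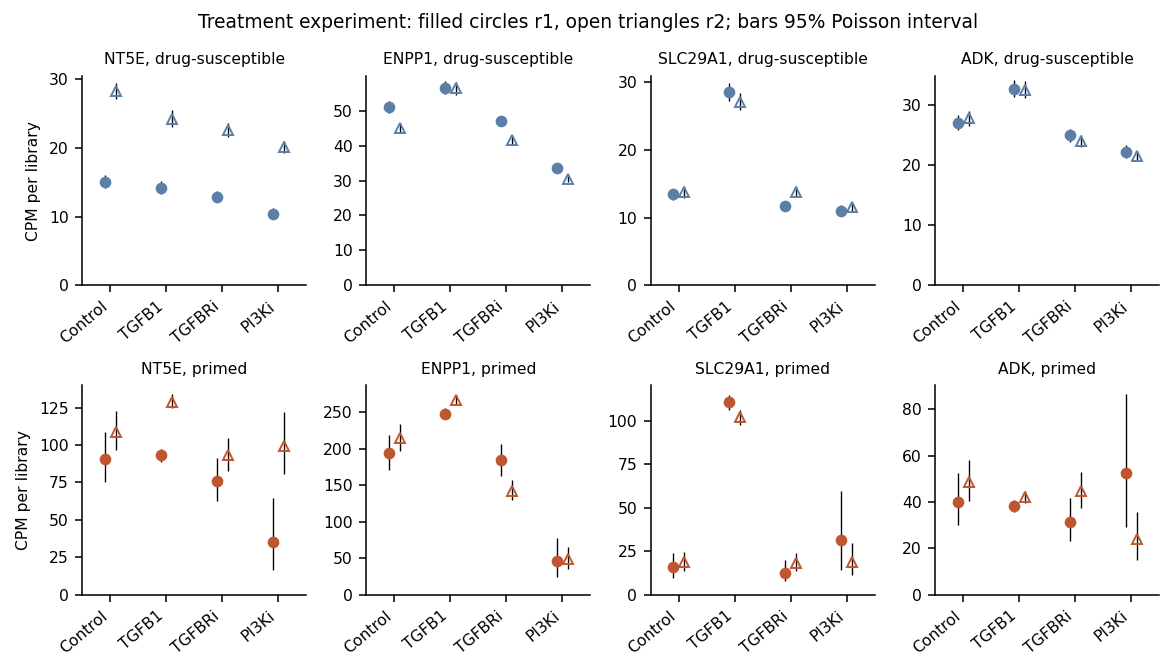
Level in CPM of NT5E, ENPP1, SLC29A1 and ADK by treatment in drug-susceptible (upper row) and primed (lower row) cells, with markers for r1 and r2 and 95% Poisson intervals. SLC29A1 stands out with TGFB1 in both states, ENPP1 is low with PI3Ki in primed cells, and NT5E in drug-susceptible cells is higher in r2 than in r1 with each treatment.

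Among primed cells the TGFB1 comparison was also one between clusters. With TGFB1 98.2% and 97.1% of the primed cells lay in cluster 4, whereas 94.7% and 96.4% lay in cluster 10 in Control, 88.0% and 97.1% with PI3Ki and every primed cell with TGFBRi. Treatment and cluster therefore cannot be told apart in this comparison, and clusters had been called from these counts. With the 10930 genes that passed the filter, 6 members could be tested, and ADORA1, ADORA2A and ADORA2B did not pass. With TGFB1 2 of 6 members rose (SLC29A1 and ENPP1), against 6.21% of the genes. With PI3Ki 1 of 6 fell (ENPP1), against 1.32%, and with TGFBRi 0 of 6 passed edgeR or DESeq2, against 0.375% by edgeR. With TGFBRi 1 member had an unadjusted p under 0.05, a limit at which the share of all genes was not counted. The median log2 change of the 6 was 0.32 with TGFB1, −0.52 with PI3Ki and −0.22 with TGFBRi, and 0.0 for all genes. With PI3Ki ADA had 1 and 5 UMIs and ENTPD1 0 and 7 UMIs in the primed cells of r1 and r2.

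SLC29A1 of primed cells was at 15.7 and 18.5 CPM in Control and at 111 and 102 CPM with TGFB1, 2.68 ± 0.19 (6.41-fold, edgeR adjusted p = 6.92e-15). In the few TGFB1 cells of cluster 10, 29 in r1 and 51 in r2, it was at 36.5 CPM (19.4 to 62.4) and 60.1 CPM (42.3 to 82.9), and in the Control cells of that cluster at 14.5 CPM (8.59 to 22.9) and 18.8 CPM (13.7 to 25.2). The level in cluster 10 was thus also higher with TGFB1, from 13 and 37 UMIs. Several state markers moved in primed cells with TGFB1. NGFR changed by −3.28 ± 0.17, SOX10 by −1.04 ± 0.14 and MITF by −0.91 ± 0.13, with edgeR adjusted p of 4.62e-19, 4.58e-07 and 1.4e-06. AXL changed by 0.83 ± 0.18 and EGFR by 0.89 ± 0.27, with adjusted p of 0.000549 and 0.0172. Their part in the SLC29A1 result was not tested. With TGFBRi SLC29A1 was at 12.7 and 18.2 CPM and with PI3Ki at 31.5 and 18.7 CPM.

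ENPP1 of primed cells was at 194 and 215 CPM in Control, 248 and 267 CPM with TGFB1, 184 and 142 CPM with TGFBRi and 45.6 and 48.7 CPM with PI3Ki. With PI3Ki the change was −2.14 ± 0.21 (4.4-fold lower, edgeR adjusted p = 1.75e-09) and rests on 13 and 47 UMIs in 25 and 70 cells. Of the state markers, AXL and NGFR were also lower in these cells, with −2.75 ± 0.50 (edgeR adjusted p = 0.0006) and −1.74 ± 0.25 (edgeR adjusted p = 1.99e-05), while SOX10 changed by −0.12 ± 0.21 and EGFR by 0.91 ± 0.42 (edgeR adjusted p = 0.404). The effect of PI3Ki on EGFR was higher in primed than in drug-susceptible cells by 1.87 ± 0.49 (edgeR adjusted p = 0.0146). These marker values rest on few counts in the primed PI3Ki cells of r1 and r2. AXL had 2 and 3 UMIs, at or under the limit of 3 counts, NGFR 4 and 41 UMIs and EGFR 2 and 22 UMIs. The replicates of EGFR went in opposite directions, at 7.01 and 22.8 CPM with PI3Ki and 11.2 and 8.85 CPM in Control. The part of these markers in the ENPP1 result was not tested. Since most of these cells lay in cluster 10 in both groups, the levels within that cluster were close to these, with 204 and 207 CPM in Control and 49.1 and 49.1 CPM with PI3Ki. The rise with TGFB1 was 0.41 ± 0.13 (edgeR adjusted p = 0.0219), and it was lost without any 1 Control or TGFB1 library (adjusted p 0.39 without Control r1, 0.113 without Control r2, 0.185 without TGFB1 r1, 0.395 without TGFB1 r2) and by DESeq2 (0.12). Within cluster 10 ENPP1 was lower with TGFB1 than in Control, at 75.8 CPM (49.9 to 110.0) and 39.0 CPM (25.0 to 58.0).

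NT5E of primed cells was at 90.9 and 109 CPM in Control, 93.1 and 129 CPM with TGFB1, 76.0 and 93.5 CPM with TGFBRi and 35.0 and 99.6 CPM with PI3Ki. Control and treated libraries overlapped, and the change was 0.24 ± 0.14 with TGFB1 (edgeR adjusted p = 0.317, normal 95% interval −0.04 to 0.52) and −0.43 ± 0.21 with PI3Ki (edgeR adjusted p = 0.425), where r1 held 10 UMIs. In cluster 10 NT5E was at 39.3 CPM (21.5 to 65.9) and 55.2 CPM (38.3 to 77.2) with TGFB1 and at 96.6 CPM (80.1 to 116) and 109 CPM (96.0 to 123) in Control. ADA changed by 0.66 ± 0.27 with TGFB1 (edgeR adjusted p = 0.105) and ENTPD1 by −0.86 ± 0.45 (edgeR adjusted p = 0.23).

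The difference of a treatment effect between the states was tested as an interaction in edgeR, with library as a term. For TGFB1 4 of 9 members passed, against 9.98% of 18502 genes, for PI3Ki 1 of 9 against 1.21%, and for TGFBRi 0 of 9 by edgeR and by DESeq2, against 0.551% by edgeR. For TGFBRi 1 member had an unadjusted p under 0.05, a limit at which the share of all genes was not counted. The effect of TGFB1 on SLC29A1 was larger in primed than in drug-susceptible cells by 1.74 ± 0.18 on the log2 scale (edgeR adjusted p = 3.29e-20), and that of PI3Ki on ENPP1 was more negative in primed cells (−1.65 ± 0.20, edgeR adjusted p = 3.22e-13). Both calls were kept in each of 8 fits that left out 1 library, with values from 1.68 to 1.92 and from −1.92 to −1.47. The median of the fitted values was 0.37 for the members and 0.04 for all genes with TGFB1, −0.96 and −0.04 with PI3Ki and −0.24 and 0.02 with TGFBRi, which counts ADORA1 and ADORA2A with 0 to 28 UMIs in primed cells. With PI3Ki the median is the value of ADA (−0.96 ± 0.62, edgeR adjusted p = 0.818), which had 1 and 5 UMIs in primed PI3Ki cells. ADORA2B had 0 and 1 UMIs there, so that this median shows no shift of the members as a set. The TGFB1 interaction again sets cluster 4 against cluster 10.

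For NT5E the TGFB1 interaction was 0.56 ± 0.11 (edgeR adjusted p = 3.63e-05), but it depended on single libraries, with 0.17 (adjusted p = 0.765) without Control r2 and 0.42 (adjusted p = 0.235) without TGFB1 r1, and DESeq2 gave 0.41 (adjusted p = 0.543). For ADA it was 0.81 ± 0.26 (edgeR adjusted p = 0.0225), with adjusted p of 0.0983 without Control r1, 0.329 without Control r2, 0.243 without TGFB1 r2, 0.281 by DESeq2 and 0.0515 with RLE scaling. For ENTPD1 it was −1.30 ± 0.42 (edgeR adjusted p = 0.0223), with −0.62 (adjusted p = 0.698) without Control r1, adjusted p of 0.137 without TGFB1 r1 and 0.164 without TGFB1 r2, and 0.191 by DESeq2. The ENTPD1 value rests on 12 and 11 UMIs in the primed Control cells. For ENPP1 the interaction was 0.24 ± 0.09 (edgeR adjusted p = 0.0885), which passed without Control r2 (adjusted p = 0.0097) and without PI3Ki r2 (adjusted p = 0.0344).

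Of the 47 other genes of the pathway, 34 were tested over all cells, of which 7 rose and 5 fell with TGFB1, beside 16.3% and 12.7% of all genes, with a median log2 change of −0.04 beside 0.01 for all genes. AMPD2, an AMP deaminase, rose by 0.33 ± 0.08 (edgeR adjusted p = 0.0022) from 14.0 and 13.5 CPM to 17.6 and 17.3 CPM, and ENTPD4 by 0.23 ± 0.07. AHCY, which releases adenosine from S-adenosylhomocysteine, fell by 0.31 on the log2 scale (SE 0.07, edgeR adjusted p = 0.00146) from 272 and 271 CPM to 222 and 220.0 CPM. NT5M fell by 0.28, HPRT1, the purine salvage enzyme, by 0.24 and NT5C3A by 0.22. With PI3Ki 3 fell, beside 6.83% of all genes, and 0 rose, a direction for which no share of all genes is given here. Of the 3, AK4, a mitochondrial adenylate kinase, went from 52.4 and 66.6 CPM to 29.1 and 35.1 CPM, −0.78 ± 0.06 (edgeR adjusted p = 1.46e-08), and HPRT1 changed by −0.24. Among drug-susceptible cells 0 rose and 2 fell with TGFB1 among 33 tested, beside 8.56% and 6.32% of all genes.

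In ATAC-seq, each member's start was given the fold enrichment of the strongest peak within 1 kb, as the authors' peak caller reported it per library. Read depths were not given with the peak lists, and a library had 148575 to 180941 distinct peaks. A peak was found in all 12 libraries for 8 of the 9 starts, and ADORA2A had none in any library. With limma, each sort was compared with the 3 Mix libraries that the comparisons share, over 12633 genes with a peak in all 12 libraries. Of the 8 members 0 passed for EGFR_High, NGFR-High and EGFR-NGFR-High, against 0.245%, 0.617% and 0.752% of the genes. In each comparison 2 members had an unadjusted p under 0.05, and the share of all genes at that limit was not counted. The median log2 difference of the members was 0.12, 0.23 and 0.07.

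The NT5E start had a fold enrichment of 31.4, 30.2 and 48.4 in Mix, 34.1, 41.1 and 33.3 in EGFR_High, 53.7, 48.5 and 52.7 in NGFR-High and 44, 38.8 and 32.3 in EGFR-NGFR-High. NGFR-High lay above the Mix libraries, of which the highest came close. The log2 difference was 0.07 ± 0.14 for EGFR_High, 0.37 ± 0.14 for NGFR-High (limma adjusted p = 0.316, normal 95% interval 0.09 to 0.65) and 0.02 ± 0.14 for EGFR-NGFR-High. The sign turned for EGFR_High without Mix 1 (−0.03) or Mix 2 (−0.02), and for EGFR-NGFR-High it also turned with single libraries left out, with values from −0.09 to 0.21. The start carried a peak in the Mix sort as well, in a region that holds the promoter printed above.

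The ENPP1 start had 21.1, 27.8 and 25.2 in Mix and 33.8, 32.8 and 33.8 in NGFR-High, 0.29 ± 0.14 (limma adjusted p = 0.441). In EGFR_High it had 26.5, 23.2 and 29.9, 0.17 ± 0.14 (limma adjusted p = 0.708), and in EGFR-NGFR-High 29.2, 24.6 and 24.3, 0.01 ± 0.14 (limma adjusted p = 0.983). The SLC29A1 start, on chromosome 6 at 44223595, had 18.4, 16.5 and 16.5 in Mix and 23.2, 18.0 and 13.9 in EGFR-NGFR-High, a difference of 0.0 ± 0.13. In NGFR-High it had 23.9, 25.4 and 18.8, all above Mix, 0.24 ± 0.13 (limma adjusted p = 0.502), and in EGFR_High 15.8, 20.3 and 17.1, 0.11 ± 0.13. ADORA1 had 15.7, 17.9 and 13.6 in Mix and 19.2, 22.2 and 20.6 in EGFR_High, 0.46 ± 0.15 (limma adjusted p = 0.226), so that these groups did not overlap. EGFR-NGFR-High lay above Mix too, with 23.8, 23.2 and 18.4, 0.40 ± 0.15 (limma adjusted p = 0.293), while NGFR-High overlapped with 19.9, 14.4 and 16.5, −0.05 ± 0.15 (limma adjusted p = 0.918). NGFR-High also lay above Mix for ADA, with 38.2, 32.8 and 32.0 against 28.7, 23.1 and 28.1 (limma adjusted p = 0.609). The same held for ADORA2B, with 7.16, 7.44 and 7.99 against 5.82, 4.71 and 4.84 (limma adjusted p = 0.384). The share of all genes with such a separation was not counted. ENTPD1 had 14.8, 13.7 and 9.68 in Mix and 5.98, 9.46 and 7.83 in EGFR_High, −0.65 ± 0.18 (limma adjusted p = 0.177), but only where peaks within 1 kb were used, and a peak that overlaps the start gave 0.10 (adjusted p = 0.829). For comparison, the start of EGFR itself differed by 1.55 ± 0.15 between EGFR_High and Mix (limma adjusted p = 0.000704), and that of NGFR by 1.55 ± 0.22 between NGFR-High and Mix (adjusted p = 0.0053).

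**Figure D5:**
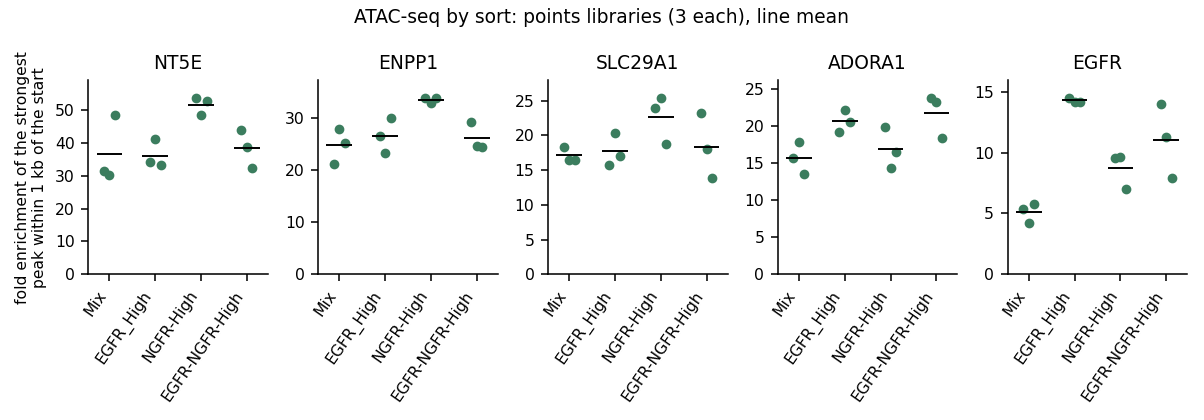
Fold enrichment of the strongest ATAC-seq peak within 1 kb of the start of NT5E, ENPP1, SLC29A1, ADORA1 and EGFR in the 3 libraries of each sort, with a line at the mean. EGFR separates EGFR_High from Mix, whereas no difference of a member passed the test. NGFR-High lies above Mix for NT5E, ENPP1 and SLC29A1, and both other sorts do for ADORA1. Of the members not shown, NGFR-High also lies above Mix for ADA and ADORA2B. EGFR_High does so for ADK, and EGFR-NGFR-High for ADK and ADORA2B. The share of all genes with such a separation was not counted.

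From 50 kb before to 50 kb after NT5E, merged peaks of the 12 libraries gave 16 regions, of which 8 were found in all 12 libraries. Of the 16, 0 were found in all 3 EGFR-NGFR-High libraries and in no Mix library, or the reverse. A region centred at −31870 bases from the start, chr6:85418110-85418318, had a peak in 0 Mix, 0 EGFR_High, 1 NGFR-High and 2 EGFR-NGFR-High libraries. Around ENPP1 12 of 23 regions were found in all 12 libraries and 0 in all 3 EGFR-NGFR-High but no Mix library. Around SLC29A1 these counts were 12 of 26 and 0, and around ADA 14 of 27 and 0. Regions found in all 3 EGFR-NGFR-High but no Mix library numbered 1 of 45 around ADK, 1 of 32 around ADORA1, 2 of 27 around ADORA2A and 2 of 12 around ADORA2B, and ENTPD1 had 1 of 19 in the reverse direction. This made 6 of 227 regions (2.64%) and 1 of 227 (0.441%) around the 9 members, beside 3.16% and 0.558% of the 230479 merged regions of chromosomes 1 to 22 and X, and thus near the background. Presence of a peak does not show its height. The region chr6:131863796-131864354, within the span of the ENPP1 transcript and named after its values were seen, had a fold enrichment of 12.5, 13.2 and 13.1 in Mix and 20.1, 18.0 and 15.2 in EGFR_High. In NGFR-High it had 32.6, 30.2 and 29.1, and in EGFR-NGFR-High 32.7, 25.5 and 24.8, so that the Mix libraries lay below all others. Another region of the same gene, chr6:131867656-131868162, also named after its values were seen, went the other way. It had 16.6, 11.8 and 11.6 in Mix, 7.68, 8.51 and 7.34 in EGFR_High, 7.56, 7.87 and 11.3 in NGFR-High and 8.03, 7.56 and 6.45 in EGFR-NGFR-High. Around ADA, the region chr20:44572487-44573715, which lies within the span of PKIG, had 12.5, 10.8 and 11.6 in Mix and 26.4 to 60.1 in the other sorts, while ADA RNA was lower in primed cells in the wells of untreated WM989. Around ADK, chr10:74189514-74191132 had 24.6, 25.5 and 30.0 in Mix and 38.7 to 72.6 in the other sorts. Both were named after their values were seen. Of the 90 regions around the members with a peak in all 12 libraries, Mix lay below every other library in 5 (5.56%) and above every other library in 4 (4.44%). Over the 78209 such regions of chromosomes 1 to 22 and X these shares were 4.09% and 5.9%, so that the members' regions were near the background. Heights of single regions were not tested.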

How the data were processed

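For the 3 single-cell RNA-seq experiments the deposited matrices hold UMI counts, which the authors made with Cell Ranger on hg38 (version not given in the sources used here), aggregated without depth normalization and filtered in Seurat on genes per cell, which removed likely doublets, and on mitochondrial reads. No further cells were removed and no doublet caller was run. Clusters, states, phases and libraries are those of the deposited cell labels. For ATAC-seq the authors deposited MACS2 2.1.1.20160309 peak lists per library after Bowtie2 2.3.4.1, SAMtools 1.1 and picard, with the fold enrichment, a ratio over local background, and the −log10 of the q-value, which was used in an alternative with a minimum of 10. A start is that of the canonical transcript in GENCODE release 44, and peaks that touch by 1 base were merged into regions.

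Counts were summed over cells with Python 3.11.15, numpy 2.4.6, scipy 1.17.1 and pandas 2.3.3. CPM scale counts to a total of 1000000 UMIs of the same cells, and intervals (exact Poisson or Clopper-Pearson, 95%) cover counting error only. A count of 0 allows up to 3 counts. Cells were thinned to 10000, 30000 and 5000 UMIs in the 3 experiments, and 17 drug-susceptible and 16 primed cells of the third were left out. Treatments were tested in R 4.3.3 with edgeR 4.0.16 (filterByExpr, TMM, two-sided quasi-likelihood test, Benjamini-Hochberg adjustment over all genes tested, threshold 0.05), with 3 residual degrees of freedom, or 4 for the interaction of state and treatment. Libraries with at least 20 primed cells entered the primed fit, which all 8 did. The SE is the log2 change divided by the square root of F. The replicate was a term because the methods split the cells of 1 well over the plates, and the difference of r2 and r1 correlated between treatments with Pearson's r from 0.256 to 0.365 over 6 pairs. ATAC-seq used limma 3.58.1 on log2 fold enrichment, centred on the median of each library, with sort as the only term. DESeq2 1.42.0 was an alternative. Both procedures were tested on simulated data with 200 changed genes. P-values measure the spread between the libraries, which may be technical.

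The 9 genes, the 47 other pathway genes and the marker lists were chosen with earlier results of these data known. A marker list of immune cells is not reported here. Named pathway genes are up to 5 with the largest rise and 5 with the largest fall over all cells among those called, with a mean of at least 5 CPM. Genes like NT5E are the 5 largest and 3 smallest r among genes that reached 10 CPM in a cluster. Alternatives were RLE scaling, DESeq2, keeping low counts, dropping the replicate term, cells of at least 5000 UMIs, other peak rules, G1 cells only, single replicates and leaving out each library.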

Additional observations from a re-analysis of the deposited data

Results flagged for a closer look

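ENTPD1 in primed cells of well 7 of untreated WM989 was at 5.69 CPM, from 51 UMIs, and stood apart from the other wells, of which the next was at 4.11 CPM. Its gap over the range of the 8 wells was above Dixon's critical value. Chance gives such a gap in about 1 of 20 groups, and 32 ends of groups were examined. That rate takes the 8 wells as independent, while by the methods each chip well shares its culture with another. The Poisson interval of well 7, 4.24 to 7.48 CPM, also overlapped that of the next well, 3.62 to 4.64 CPM.

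Treatment effects that differed between the states by the interaction test were 1.74 for SLC29A1, 0.56 for NT5E, −1.30 for ENTPD1 and 0.81 for ADA with TGFB1, and −1.65 for ENPP1 with PI3Ki, each as the log2 effect in primed minus that in drug-susceptible cells. For SLC29A1 and ENPP1 the call held in each of the 8 fits that left out 1 library. Those of NT5E, ENTPD1 and ADA did not. With TGFB1 the primed cells lay in another cluster than in Control.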

How the results depend on the processing

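Of 630 alternatives of the member results, 563 kept their direction and side of the threshold, 55 fell below the threshold, 4 rose above it and 8 changed sign. Without the replicate block the log2 change of NT5E was 0.85 with TGFB1 and −0.46 with PI3Ki over all cells, −0.38 with PI3Ki in drug-susceptible cells (adjusted p = 0.625) and 0.48 for the TGFB1 interaction (adjusted p = 0.635), none of them past the threshold. The members called fell to 3 and 1 (TGFB1 and PI3Ki, all cells), 1 and 1 (drug-susceptible) and 1 (TGFB1 interaction). The genes called fell from 2328 to 649 and from 466 to 40 (PI3Ki and TGFBRi, all cells), from 2665, 2170 and 503 to 1189, 570 and 47 (TGFB1, PI3Ki, TGFBRi, drug-susceptible), from 195 and 41 to 87 and 9 (PI3Ki and TGFBRi, primed) and from 1847, 224 and 102 to 775, 7 and 4 (interaction). The cause was not tested.

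DESeq2 gave 0.41 for the NT5E interaction and called 1 member in primed cells with TGFB1 and 1 in the TGFB1 interaction. It called 693 and 13 genes in place of 1454 and 41 (TGFB1 and TGFBRi, primed) and 775 and 17 in place of 1847 and 102 (interaction), and 329 in place of 503 with TGFBRi in drug-susceptible cells. Without a filter on low counts NT5E with TGFBRi in drug-susceptible cells passed (−0.26, adjusted p = 0.0307, 1 member called), and 748 genes were called over all cells in place of 466. The NT5E ratio of the states was 7.25 in r1 alone, and in G1 cells 8.65 in WM989 and 2.56 in WM983B.

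When 1 library was left out, members called ranged from 2 to 4 (PI3Ki, all cells), 2 to 4 (TGFB1, drug-susceptible), 1 to 3 (PI3Ki, drug-susceptible), 0 to 1 (TGFBRi, drug-susceptible), 1 to 2 (TGFB1, primed) and 2 to 5 (TGFB1 interaction). The number of members called also varied with TGFB1 over all cells. A fit without 1 library leaves 1 library in that group, and the share of all genes called in these fits is not given here. The counts therefore cannot show whether the members or all genes gained and lost calls. NT5E in drug-susceptible cells ranged from −0.29 to −0.23 with TGFBRi and from −0.51 to −0.33 with PI3Ki, and its TGFB1 interaction from 0.17 to 0.77. ADA with TGFB1 over all cells ranged from −0.10 to 0.03.

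In ATAC-seq, NT5E ranged from −0.03 to 0.26 (EGFR_High) and from −0.09 to 0.21 (EGFR-NGFR-High) when 1 library was left out, and ENTPD1 for EGFR_High was 0.10 with the peak that overlaps the start. That rule called 18, 17 and 18 genes in place of 31, 78 and 95. Without centring 126 genes were called for NGFR-High, and peaks with a −log10 q of at least 10 gave 60 for EGFR-NGFR-High. With the replicate number as a block NT5E was 0.07, 0.37 and 0.02, and no call of the 8 member results fitted with it changed. The deviations of same-numbered libraries correlated from −0.0498 to 0.129, not over 0.1 in every pair, so the numbers were not taken to pair them. As a hint towards pairing, 10 of 12 libraries were closest to their own number.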
